A study of Mus musculus with 6 samples.

Results

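The genes described here carry the signal of G protein-coupled receptors from the receptor to cyclic AMP (cAMP): the alpha, beta and gamma subunits of heterotrimeric G proteins, the regulators of G protein signalling (RGS), the adenylyl cyclases, the subunits of cAMP-dependent protein kinase (PKA), the A-kinase anchoring proteins (AKAPs) and the cyclic nucleotide phosphodiesterases. They were chosen by symbol: a single gene symbol in the platform annotation that starts with Gna, Gnb, Gng, Rgs, Adcy, Prka or Akap, or with Pde and a digit, leaving out Gnat, antisense entries of Gnas, Gnb1l and the subunits of AMP-activated kinase. This gave 55 genes on 71 probes, and all 55 were measured (70 probes), beside 6091 other genes and 9685 features in all. The rule uses symbols and no measured value, although it was set with earlier results of these data known. The prefixes also take in genes that do other work: Adcyap1r1 encodes the receptor for the neuropeptide PACAP, Pde6g an inhibitory subunit of the retinal phosphodiesterase, Pde6d a binding protein for prenylated proteins, Pde4dip a centrosome and Golgi scaffold, Pde12 a mitochondrial enzyme acting on oligoadenylates, and Rgs7bp a membrane anchor of RGS proteins. The Gnas gene itself was not analysed here, because its probes carry more than 1 symbol, as do those annotated to Gnb5 and Pde9a.

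Total RNA came from brains of male mice aged 9 weeks and was hybridised on 6 two-colour BMAP cDNA microarrays. On 3 arrays, RNA of NY1DD mice, a transgenic line that models sickle cell disease (the labels give no further genotype), taken 10 min after naloxone (Cy5) was set against RNA of NY1DD mice taken 10 min after saline (Cy3). On the other 3 arrays, RNA of wild-type C57BL/6J mice given naloxone was set in the same way against RNA of C57BL/6J mice given saline. The dyes were not swapped. A dye effect shared by all arrays therefore remains in each strain mean and cancels only in the difference between strains. No label says that each array had its own animals, so p-values reflect only how far arrays spread around their strain means. This spread is pooled over both strains and moderated over all features. The arrays of each strain thus also enter the SE and p-value of the other. C57BL/6J replicates 1 and 2 share a number in their titles whose meaning is not given, and each of the other arrays has its own, so this number cannot be told apart from strain. Values are given as log2 ratios with naloxone as the likely numerator; the files do not state it, and in the reverse case every sign turns.

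Naloxone blocks opioid receptors. These receptors couple to G proteins of the Gi/o class, whose alpha subunits restrain adenylyl cyclase while the released beta-gamma dimers act on ion channels. RGS proteins end the signal by speeding up GTP hydrolysis on the alpha subunit, PKA is the main sensor of cAMP, AKAPs hold PKA at its substrates, and phosphodiesterases break cAMP or cGMP down. Several of these genes are themselves transcribed in response to cAMP through the factor CREB, which binds the cAMP response element.

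Usable probes numbered from 11104 to 11251 on the NY1DD arrays and from 11221 to 11304 on the C57BL/6J arrays. NY1DD replicate 2 stood apart: 27.5% of the variance of its ratios went with the plate well of the probes, against 3.2% to 11.4% on the other 5 arrays. Of the 55 genes, 52 had a value on all 6 arrays, and 44 rested on 1 probe. The values are ratios only, so signal over background and the level of any gene are unknown, and the labelled tissue was not checked against marker levels.

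No gene of the module passed the test in any comparison. The test was a limma fit of a mean per strain with Benjamini-Hochberg adjustment over 9685 features at a threshold of 0.05, and it called 0 features (0%) in NY1DD, 0 (0%) in C57BL/6J, 0 (0%) in the difference between strains and 0 (0%) in the mean over the strains, hereafter the average. The values below are therefore descriptions: genes are given as positive or negative, and not as changed. The smallest limma adjusted p of a member was 0.489 in NY1DD (Akap12), 0.246 in C57BL/6J (Rgs8), 0.969 for the difference and 0.179 for the average (Rgs8).

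In NY1DD the members lay on both sides of 0, with 29 positive and 26 negative and a median log2 ratio of 0.02, against -0.01 for the other 6091 genes (2964 positive, 3127 negative). An unadjusted limma p under 0.05 was reached by 9 members (16.4%, against 8.35% of all features). On the positive side there were 4 (Pde4a, Pde4b, Rgs7 and Gnb4; 7.27% of members, against 3.46% of all features) and on the negative side 5 (Akap12, Pde1c, Gna12, Rgs8 and Akap8l; 9.09%, against 4.89%). The NY1DD median was 0.0017 without either NY1DD replicate 1 or NY1DD replicate 3. Without NY1DD replicate 1 the positive count was 2, and without NY1DD replicate 3 or C57BL/6J replicate 1 the negative count was 3. In C57BL/6J 21 members were positive and 34 negative, with a median of -0.07 (-0.021 without C57BL/6J replicate 3) against 0.01 for the other genes. There the unadjusted p was under 0.05 for 4 members (6.93% of all features), with 0 positive (1.76% of all features) and 4 negative (Rgs8, Akap8l, Rgs7 and Akap1; 7.27% of members, against 5.17% of all features). The median of the members ran from -0.032 to 0.0033 on the NY1DD arrays and from -0.13 to -0.027 on the C57BL/6J arrays; the lowest NY1DD array lay within the C57BL/6J range. Every array with a value was positive for 9 members in NY1DD (16.4%, against 14.3% of all features) and negative for 6 (10.9%, against 15.4%). In C57BL/6J the same held for 7 positive members (12.7%, against 14.4%) and 14 negative ones (25.5%, against 17.3%).

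**Figure D1:**
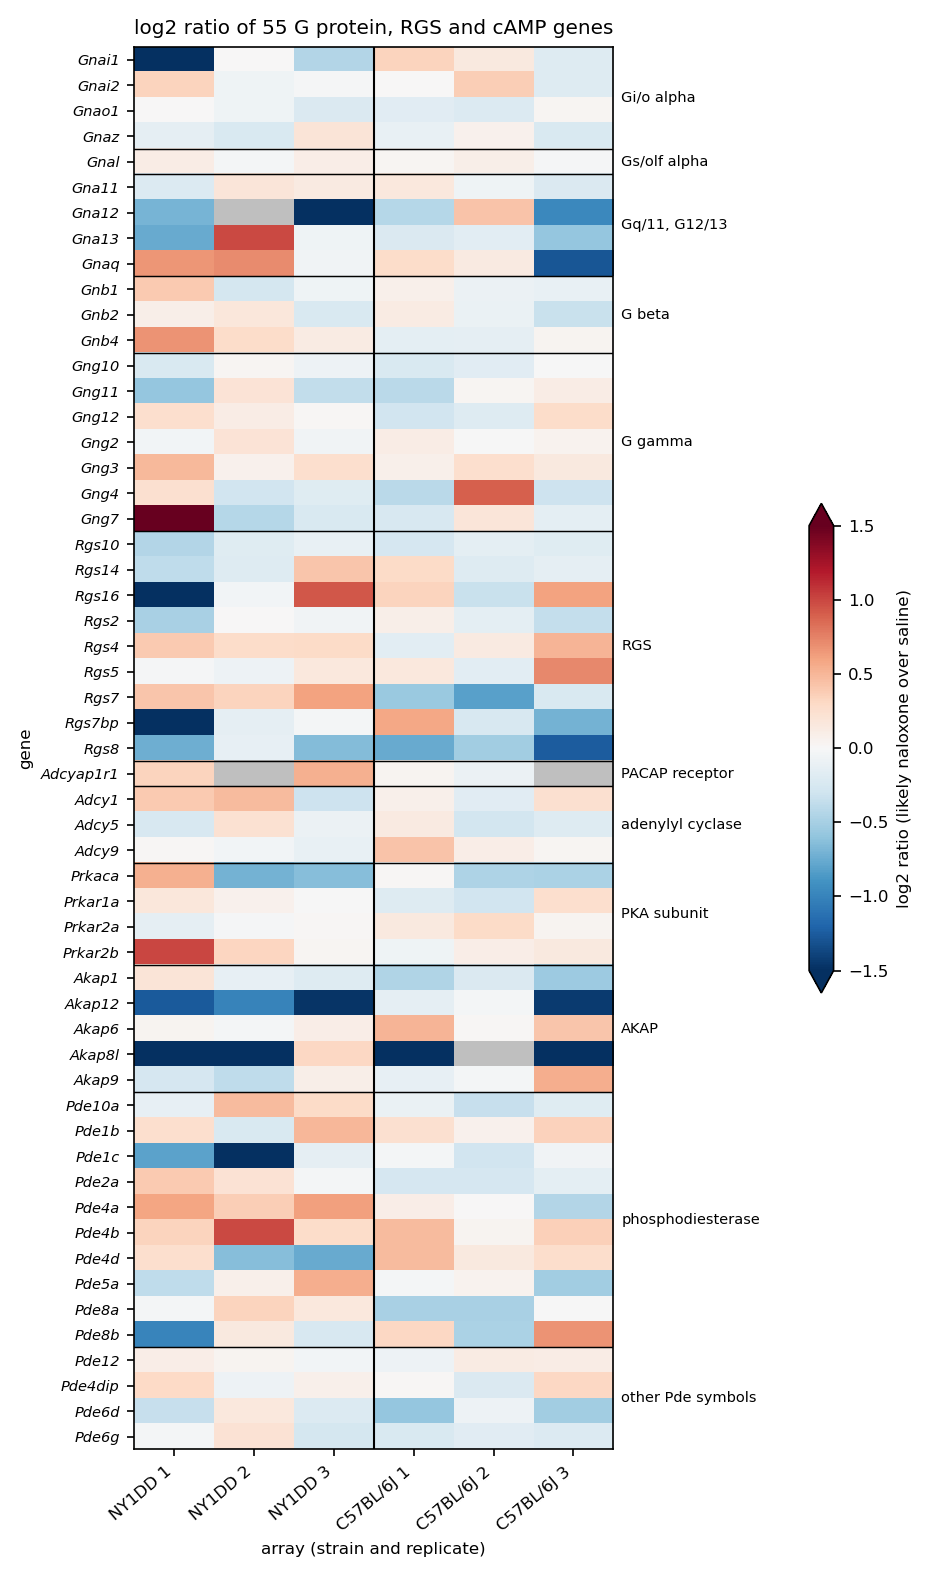
Log2 ratio of each of the 55 genes (rows, grouped by role) on the 3 NY1DD and 3 C57BL/6J arrays (columns), with colour from -1.5 (blue) to 1.5 (red), the end colours beyond, and grey for a missing value. The sign is the same on every NY1DD array with a value in 9 (positive) and 6 (negative) rows, and on every such C57BL/6J array in 7 and 14 rows; Rgs7 is red on the 3 NY1DD arrays and blue on the 3 C57BL/6J arrays, and Rgs8 is blue on all 6.

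The alpha subunits to which opioid receptors couple had values near 0 in both strains, with 1 exception. Gnai2, a Gi subunit, had log2 ratios of 0.33, -0.07 and -0.02 on NY1DD replicates 1 to 3, against 0.01, 0.36 and -0.19 on C57BL/6J replicates 1 to 3. Gnao1, the abundant Go subunit of neurons, had 0.00, -0.06 and -0.21 in NY1DD, against -0.17, -0.20 and 0.03 in C57BL/6J. Gnaz, a slow-cycling relative, had -0.13, -0.22 and 0.20 in NY1DD, against -0.11, 0.07 and -0.23 in C57BL/6J. For these 3 genes the arrays of the strains overlapped, and the strain means stayed between -0.11 and 0.08.

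Gnai1 was the exception, and it rested on 1 probe on 1 array. Its gene value was -1.79, 0.00 and -0.44 in NY1DD, against 0.34, 0.15 and -0.20 in C57BL/6J, a difference of -0.84 (SE 0.45, limma adjusted p = 0.969, n = 3 arrays a strain). One of its probes had -3.17 on NY1DD replicate 1, while the other had -0.42 there. Without that array the difference was -0.32, and with the other probe alone it was -0.07.

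Gnal encodes the Golf subunit, which stimulates adenylyl cyclase in the olfactory system and striatum. It had log2 ratios of 0.11, -0.03 and 0.10 in NY1DD, against 0.03, 0.09 and -0.01 in C57BL/6J, the narrowest spread of the alpha subunits over the 6 arrays. Its 3 probes did not share a sign: their means were 0.24, -0.02 and -0.05 in NY1DD and 0.30, -0.32 and 0.13 in C57BL/6J.

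Among the Gq/11 and G12/13 subunits, the first of which drive phospholipase C, Gna11 stayed between -0.22 and 0.19 on all arrays. Gna12 was negative on both NY1DD arrays that measured it, with -0.70 and -1.98, against -0.43, 0.43 and -0.97 in C57BL/6J (NY1DD mean -1.34, SE 0.42, n = 2, limma adjusted p = 0.535). The lowest C57BL/6J array lay between the NY1DD values. Gnaq had 0.66, 0.71 and -0.06 in NY1DD, against 0.27, 0.13 and -1.28 in C57BL/6J, and Gna13 had -0.75, 1.00 and -0.07 against -0.22, -0.16 and -0.58. All 4 genes of this class had a negative C57BL/6J mean, and 3 of 4 had a positive NY1DD mean.

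The beta and gamma subunits, which form the dimer that acts on channels and enzymes, had strain means between -0.25 and 0.38. Single arrays lay further from 0. The 3 beta genes had positive NY1DD means (0.01 to 0.36) and negative C57BL/6J means (-0.10 to -0.04). The NY1DD means of Gnb1 and Gnb2 were near 0, at 0.02 and 0.01. For Gnb1 neither probe had this pattern. One was negative in both strains (means -0.08 in NY1DD and -0.28 in C57BL/6J), and the other was positive in both (0.12 and 0.20). Gnb4 had 0.68, 0.28 and 0.12 in NY1DD, against -0.14, -0.14 and 0.04 in C57BL/6J, and its arrays did not overlap between strains (difference 0.44, SE 0.22, n = 3 a strain, limma adjusted p = 0.969). On each of its probes alone the strains overlapped. The first probe had 0.38, 0.28 and 0.09 in NY1DD, against 0.02, 0.15 and -0.20 in C57BL/6J. The second had 0.97 and 0.15 on NY1DD replicates 1 and 3, against -0.30, -0.43 and 0.29 in C57BL/6J. Gnb4 lies outside the rule for naming genes and is given because its values were seen to stand apart. Of the 7 gamma genes, Gng3, a neuronal subunit, was positive on all 6 arrays, with 0.49, 0.06 and 0.25 in NY1DD and 0.08, 0.25 and 0.15 in C57BL/6J (average 0.21, SE 0.10, limma adjusted p = 0.503, n = 6 arrays). Gng7, the striatal partner of Golf, had 1.79 on NY1DD replicate 1, but -0.43 and -0.22 on the other NY1DD arrays, against -0.24, 0.18 and -0.14 in C57BL/6J. The other 5 gamma genes (Gng2, Gng4, Gng10, Gng11 and Gng12) had strain means between -0.25 and 0.13, although Gng4 had 0.90 on C57BL/6J replicate 2.

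Among the RGS genes, values with one sign on all arrays stood beside means set by 1 array. Rgs8, an RGS protein of Purkinje cells and other neurons that acts on Gi/o subunits, was negative on all 6 arrays: -0.73, -0.13 and -0.65 in NY1DD, and -0.76, -0.52 and -1.25 in C57BL/6J. Its means were -0.51 (SE 0.19, limma adjusted p = 0.579) in NY1DD and -0.84 (SE 0.19, limma adjusted p = 0.246) in C57BL/6J, n = 3 each. The average of both strains was -0.67 (SE 0.14, limma adjusted p = 0.179), with adjusted p from 0.103 to 0.422 over the alternatives that were run. Rgs10, which acts on Gi/o subunits and is known from microglia and neurons, was also negative on all arrays but closer to 0, with -0.44, -0.18 and -0.11 in NY1DD and -0.25, -0.15 and -0.18 in C57BL/6J.

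Rgs7, a neuronal RGS protein that works with the beta subunit Gnb5 on Gi/o signals, was the only member positive on every NY1DD array and negative on every C57BL/6J array; 1.31% of all features had this pattern, and 0 members had the opposite one (1.09% of all features). It had 0.41, 0.33 and 0.60 in NY1DD, against -0.56, -0.81 and -0.23 in C57BL/6J. The difference was 0.98 (SE 0.22, limma adjusted p = 0.969, n = 3 a strain), and it stayed between 0.84 and 1.13 under the alternatives that were run. The separation is less clean by probe. The first probe had 0.27 and 0.36 on NY1DD replicates 2 and 3, against -1.32 and 0.01 on C57BL/6J replicates 1 and 3, and had no value on the remaining arrays. The second had 0.41, 0.40 and 0.84 in NY1DD, against 0.20, -0.81 and -0.47 in C57BL/6J. Each probe was positive on every NY1DD array it measured and on 1 C57BL/6J array, and for each probe the lowest NY1DD value was above the highest C57BL/6J value.

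Rgs4, a Gi/o and Gq regulator of cortex and striatum, was positive and even in NY1DD (0.39, 0.27 and 0.29) and spread around 0 in C57BL/6J (-0.16, 0.13 and 0.51); its average was 0.24 (SE 0.11, limma adjusted p = 0.503, n = 6 arrays). Rgs16 and Rgs7bp had 1 array each that set their mean: -3.44 and -2.16 on NY1DD replicate 1. On the other NY1DD arrays Rgs16 had -0.04 and 0.93, and Rgs7bp had -0.13 and -0.02. In C57BL/6J Rgs16 ran from -0.34 to 0.60 and Rgs7bp from -0.71 to 0.58. Rgs2, Rgs5 and Rgs14 had strain means between -0.18 and 0.24. Of all 9 genes with an Rgs symbol, 6 had a negative mean in NY1DD and 6 in C57BL/6J. These counts include the anchor gene Rgs7bp, whose mean was negative in both strains (-0.77 in NY1DD and -0.12 in C57BL/6J).

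**Figure D2:**
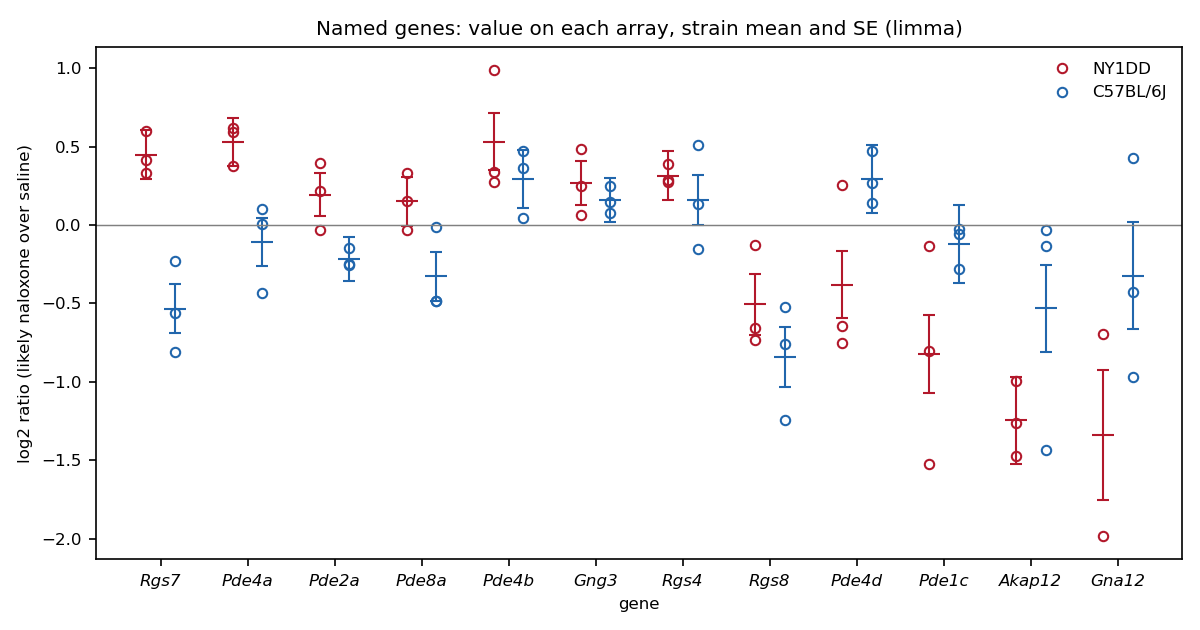
Log2 ratio (likely naloxone over saline) of 12 named genes: open circles are single arrays (NY1DD in red on the left, C57BL/6J in blue on the right of each pair), and bars are the strain mean with its limma SE. Arrays of the strains do not overlap for Rgs7, Pde4a and Pde2a, while Rgs8 lies below 0 on all 6 arrays and overlaps between strains.

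Adenylyl cyclases, the enzymes that make cAMP, had strain means between -0.11 and 0.19. Adcy5, the main striatal cyclase, which Gi inhibits, rested on 5 probes and had -0.24, 0.22 and -0.09 in NY1DD, against 0.13, -0.27 and -0.20 in C57BL/6J. The Adcy5 probes did not share a sign: their means ran from -0.45 to 0.23 in NY1DD and from -0.24 to 0.03 in C57BL/6J. Adcy1, a calcium-stimulated neuronal cyclase, had 0.39, 0.48 and -0.31 in NY1DD, against 0.08, -0.17 and 0.24 in C57BL/6J. Adcy9 had 0.01, -0.04 and -0.12 in NY1DD, against 0.43, 0.10 and 0.03 in C57BL/6J, so that its NY1DD arrays were all below its C57BL/6J arrays by a small gap (difference -0.23, SE 0.20, limma adjusted p = 0.969, n = 3 a strain). Adcyap1r1, whose peptide ligand raises cAMP, had 0.34 and 0.54 in NY1DD (replicates 1 and 3), against 0.04 and -0.09 in C57BL/6J (replicates 1 and 2). Its remaining values on NY1DD replicate 2 and C57BL/6J replicate 3 were at the lower limit of the deposited scale and were left out; the NY1DD mean was 0.44 without them and -1.94 with them.

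PKA consists of catalytic subunits held inactive by regulatory subunits that cAMP binds. Prkaca, a catalytic subunit, had 0.53, -0.71 and -0.64 in NY1DD, against 0.02, -0.47 and -0.47 in C57BL/6J. Prkar1a, the widely expressed type I regulatory subunit, had 0.17 and 0.07 on NY1DD replicates 1 and 2 and about 0 on replicate 3, against -0.19, -0.28 and 0.26 in C57BL/6J. The type II subunit Prkar2a stayed between -0.14 and 0.02 in NY1DD, below its C57BL/6J arrays at 0.15, 0.29 and 0.05, with a difference of -0.20 (SE 0.18, limma adjusted p = 0.969, n = 3 a strain). Prkar2b, the type II subunit prevalent in neurons, had 1.00, 0.32 and 0.03 in NY1DD, against -0.07, 0.10 and 0.14 in C57BL/6J, and the strains overlapped.

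The anchoring proteins held the 2 lowest averages of the module, those of Akap8l and Akap12. Akap12 (gravin), which binds PKA and the beta-adrenergic receptor, had -1.26, -0.997 and -1.47 in NY1DD, against -0.13, -0.03 and -1.43 in C57BL/6J. It was negative on all 6 arrays, but 2 of the 3 C57BL/6J arrays were near 0 and the third was as low as in NY1DD. Its NY1DD mean was -1.24 (SE 0.28, n = 3, limma adjusted p = 0.489), and its average over both strains was -0.89 (SE 0.20, limma adjusted p = 0.180). Its probe lies in plate column 12, where its well had a median of -0.40 on NY1DD replicate 2, and with the well medians subtracted the NY1DD mean was -1.08.

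Akap8l, a nuclear relative of AKAP95 that shares its zinc fingers, had -2.09, -1.67 and 0.31 in NY1DD, against -1.76 and -2.66 in C57BL/6J, where replicate 2 was at the lower limit and left out. Of its 5 usable values, 4 were below -1, and the NY1DD array that was not also had the only positive value (average -1.68, SE 0.37, limma adjusted p = 0.199). Akap1, a mitochondrial anchor, had 0.20, -0.13 and -0.20 in NY1DD, against -0.45, -0.21 and -0.54 in C57BL/6J, with -0.20 and -0.21 on the nearest arrays of the strains (C57BL/6J mean -0.40, SE 0.15, limma adjusted p = 0.612, n = 3). Akap6, an anchor of the nuclear envelope in heart and brain, was positive on every C57BL/6J array, with 0.04, -0.03 and 0.10 in NY1DD against 0.51, 0.02 and 0.41 in C57BL/6J. Akap9 ran from -0.38 to 0.09 in NY1DD and from -0.12 to 0.55 in C57BL/6J.

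Phosphodiesterases of the PDE4 family, which are specific for cAMP, did not share a direction. Pde4a was positive on all NY1DD arrays, with 0.59, 0.37 and 0.62, against 0.10, 0.00 and -0.43 in C57BL/6J. Its strains did not overlap, and its difference of 0.64 (SE 0.22, limma adjusted p = 0.969, n = 3 a strain) was the second of the members by moderated t. Pde4b was positive on all 6 arrays, with 0.34, 0.99 and 0.27 in NY1DD and 0.47, 0.05 and 0.36 in C57BL/6J. Its average over both strains was 0.41 (SE 0.13, limma adjusted p = 0.321). Pde4d had 0.26, -0.64 and -0.75 in NY1DD, against 0.47, 0.14 and 0.27 in C57BL/6J, a difference of -0.67 (SE 0.30, limma adjusted p = 0.969) that runs opposite to that of Pde4a. NY1DD replicate 1 lay within the C57BL/6J range.

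Pde1c, a calcium-calmodulin phosphodiesterase, was negative on all 6 arrays but mostly in NY1DD: -0.80, -1.53 and -0.13, against -0.03, -0.28 and -0.06 in C57BL/6J. Both of its probes had a negative mean in each strain, but neither was negative on every array. The first was positive on NY1DD replicate 3 (0.0067) and C57BL/6J replicate 1 (0.15), and the second on C57BL/6J replicate 3 (0.10). The first lies in a well whose median was -0.73 on NY1DD replicate 2, the array with its lowest value. The NY1DD mean of the gene was -0.82 (SE 0.25, n = 3, limma adjusted p = 0.525), and -0.47 without that array. Pde2a, a cGMP-stimulated enzyme, had 0.40, 0.22 and -0.03 in NY1DD, against -0.25, -0.25 and -0.15 in C57BL/6J, a separation of the strains with a difference of 0.41 (SE 0.20, limma adjusted p = 0.969). Pde8a, a high-affinity cAMP enzyme, had -0.03, 0.33 and 0.15 in NY1DD, against -0.48, -0.49 and -0.01 in C57BL/6J, where the lowest NY1DD array lay below the highest C57BL/6J array.

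The remaining enzymes, Pde1b and Pde10a (both prominent in the striatum), Pde5a and Pde8b, had strain means between -0.36 and 0.22. Over the 10 phosphodiesterases the NY1DD mean was positive for 7 and the C57BL/6J mean for 4, and the difference between strains was positive for 6, with a median of 0.24 (all features -0.01, with 48.3% positive). The 4 other genes with a Pde symbol, Pde4dip, Pde6d, Pde6g and Pde12, had strain means between -0.39 and 0.10.

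Promoter sequences from RefSeq (GRCm38.p6, 250 bases before to 50 bases after the annotated start) were searched for the cAMP response element, TGACGTCA, and for its half-sites, TGACG and its complement CGTCA, both of which lie within the full element. Promoters were found for 47 of the 55 genes (80 promoters). The full element occurred in 2 of the 80 (2.5%), against 1.79% of all 32851 promoters in the table, and a half-site in 25% against 20.8%. Those 2 overlap and belong to Prkar1a. The sequences shown are of the PDE4 genes that were positive in NY1DD, of Rgs8, which was negative on all arrays, and of Prkar1a, each 5′ to 3′ on the plus strand with the element or half-site in capitals. Only windows with a match are shown, so a match in each of them is not a finding. Other windows, such as further ones of Prkar1a, are not shown.
Pde4a (chr9:21183851-21184150), with a half-site that starts at -50 from the annotated start: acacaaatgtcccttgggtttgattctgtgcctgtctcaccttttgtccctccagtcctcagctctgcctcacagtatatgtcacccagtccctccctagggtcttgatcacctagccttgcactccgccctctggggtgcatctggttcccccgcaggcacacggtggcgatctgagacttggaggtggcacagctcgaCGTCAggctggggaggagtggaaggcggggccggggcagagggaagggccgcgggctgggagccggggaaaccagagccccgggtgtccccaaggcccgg
Pde4b (chr4:102421305-102421604), with a half-site at -34: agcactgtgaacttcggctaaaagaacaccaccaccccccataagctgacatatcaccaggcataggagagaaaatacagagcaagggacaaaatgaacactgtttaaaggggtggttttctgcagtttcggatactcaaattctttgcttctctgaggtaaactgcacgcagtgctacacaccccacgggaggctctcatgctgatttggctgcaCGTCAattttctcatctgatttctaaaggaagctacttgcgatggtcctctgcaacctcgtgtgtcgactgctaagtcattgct
Rgs8 (chr1:153652787-153653086), with a half-site at -46: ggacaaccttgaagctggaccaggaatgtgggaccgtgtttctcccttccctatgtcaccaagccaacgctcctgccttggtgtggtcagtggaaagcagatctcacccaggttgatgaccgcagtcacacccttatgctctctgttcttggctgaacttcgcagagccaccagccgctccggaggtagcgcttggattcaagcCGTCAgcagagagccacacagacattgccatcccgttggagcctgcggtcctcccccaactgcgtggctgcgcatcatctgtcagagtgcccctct
Prkar1a (chr11:109650699-109650998), with the full element at -49 and a further half-site at -187: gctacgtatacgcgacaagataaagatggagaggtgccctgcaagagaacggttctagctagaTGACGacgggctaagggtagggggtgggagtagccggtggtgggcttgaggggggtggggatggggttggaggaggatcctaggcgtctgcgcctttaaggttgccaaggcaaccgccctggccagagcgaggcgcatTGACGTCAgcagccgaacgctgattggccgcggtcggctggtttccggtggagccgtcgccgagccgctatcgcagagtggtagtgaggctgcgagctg
Of the 18 genes with a half-site in any promoter, 9 were positive in NY1DD (median -0.02) and the C57BL/6J median was -0.09; of the 29 without, 17 were positive in NY1DD (median 0.04) and the C57BL/6J median was -0.04. A match describes these letters in this window only. In the windows shown, which were picked for a match, the half-sites of Pde4a and Rgs8 start at -50 and -46.

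Between strains, the difference was positive for 34 of the 55 members and negative for 21, with a median difference of 0.06, against -0.02 over the other genes; leaving out NY1DD replicate 2 gave 0.035, and leaving out C57BL/6J replicate 3 gave 0.023. The unadjusted limma p was under 0.05 for 2 members (4.5% of all features), with 2 positive (Rgs7 and Pde4a; 3.64%, against 2.75%) and 0 negative (1.76% of all features). The negative count was 2 without NY1DD replicate 1 and 1 without any of NY1DD replicate 2, NY1DD replicate 3 and C57BL/6J replicate 3. Among arrays with a value, the strains did not overlap for 8 members (14.5%, against 10.2% of all features). The NY1DD arrays with a value lay above the C57BL/6J arrays with a value for 6 members (Rgs7, Pde4a, Pde2a, Gnb4, Adcyap1r1 and Akap1; 10.9%, against 5.62% of all features) and below them for 2 (Adcy9 and Prkar2a; 3.64%, against 4.58%). For Adcyap1r1 this rests on 2 arrays a strain, without the values at the lower limit on NY1DD replicate 2 and C57BL/6J replicate 3. For Gnb4 it holds for the mean of its probes, and on each probe alone the strains overlapped. The larger negative differences, Rgs16 (-1.05), Gna12 (-1.02), Gnai1 (-0.84), Akap12 (-0.71) and Pde1c (-0.70), all came with overlapping arrays. Among the larger positive differences, the arrays overlapped for Akap8l (1.06) and Gnaq (0.73) but not for Rgs7 (0.98) and Pde4a (0.64).

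**Figure D3:**
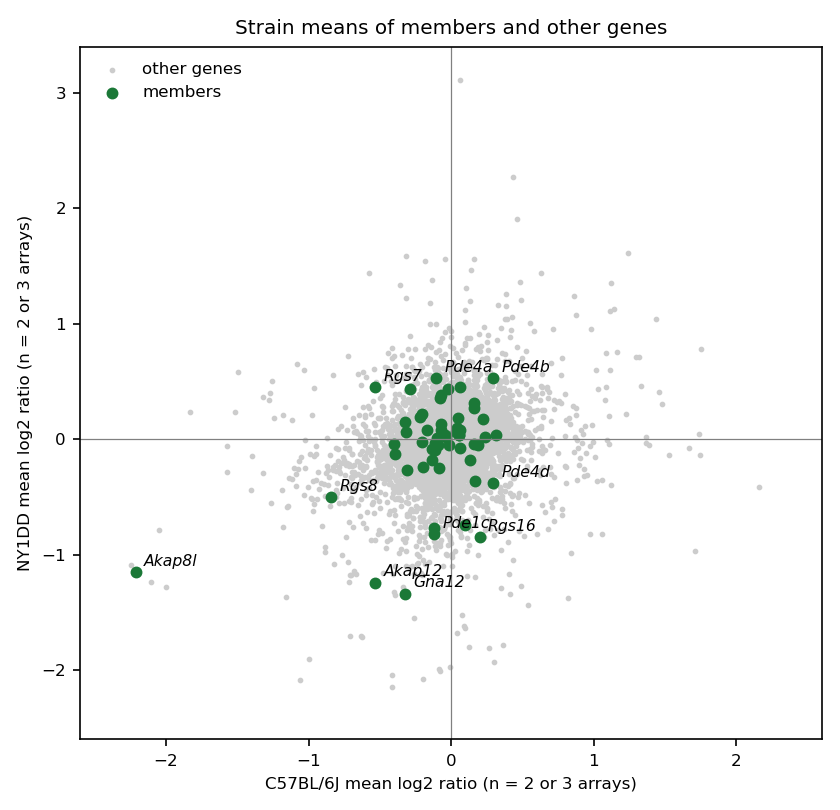
Mean log2 ratio in NY1DD (vertical axis) against that in C57BL/6J (horizontal axis), with the 55 members in green and the other 6091 genes in grey. Most members lie inside the grey cloud near 0; Akap8l (-2.21 in C57BL/6J) and Gna12 (-1.34 in NY1DD) are the lowest members on their axes, and Rgs7 lies above 0 in NY1DD and below 0 in C57BL/6J.

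Averaged over both strains, 23 members were positive and 32 negative. Here 6 members had an unadjusted limma p under 0.05 (10.9%, against 10.8% of all features), with 1 positive (Pde4b; 1.82%, against 3.4% of all features) and 5 negative (Rgs8, Akap12, Akap8l, Gna12 and Pde1c; 9.09%, against 7.37%). The positive count was 3 without NY1DD replicate 2 and 2 without NY1DD replicate 3 or C57BL/6J replicate 3; the negative count was 3 without C57BL/6J replicate 1 or 3. A dye effect on these genes would appear here in the same way and cannot be told apart from naloxone. On every array with a value, 2 members were positive (Pde4b and Gng3; 3.64%, against 2.68% of all features) and 4 negative (Rgs8, Rgs10, Akap12 and Pde1c; 7.27%, against 4.69%). For Pde1c this holds for the mean of its probes and for neither probe alone.

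The spread of the members was widest on NY1DD replicate 1. The SD of the members' log2 ratios was 0.82, 0.47 and 0.46 on NY1DD replicates 1 to 3, against 0.58, 0.59 and 0.47 for single probes of all features, and 0.38, 0.27 and 0.58 on C57BL/6J replicates 1 to 3, against 0.43, 0.47 and 0.55. NY1DD replicate 1 held 7 of 55 members past 1 log2 unit (12.7%, against 6.99% of features): Akap12, Akap8l, Gnai1, Gng7, Prkar2b, Rgs16 and Rgs7bp. Of these, only Akap12 and Akap8l passed 1 log2 unit on another array. Across members, which are not independent replicates and share the probes' positions, the Pearson correlation of 2 arrays lay between 0.0397 and 0.286 for NY1DD pairs, between -0.0383 and 0.575 for C57BL/6J pairs, and between -0.195 and 0.351 for pairs of different strains. Over all features these ranges were 0.0194 to 0.191, 0.124 to 0.148, and -0.0701 to 0.178. The value of 0.575 was for C57BL/6J replicates 1 and 3, where Akap8l had -1.76 and -2.66. The part of this gene in it was not tested.

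Different probes of a gene often went apart. Of the 11 members with more than 1 measured probe, all probe means of a gene had the same sign for 8 in NY1DD and for 4 in C57BL/6J. Those alike in sign in both strains were Gnb4, Pde10a, Pde1c and Rgs7.

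**Figure D4:**
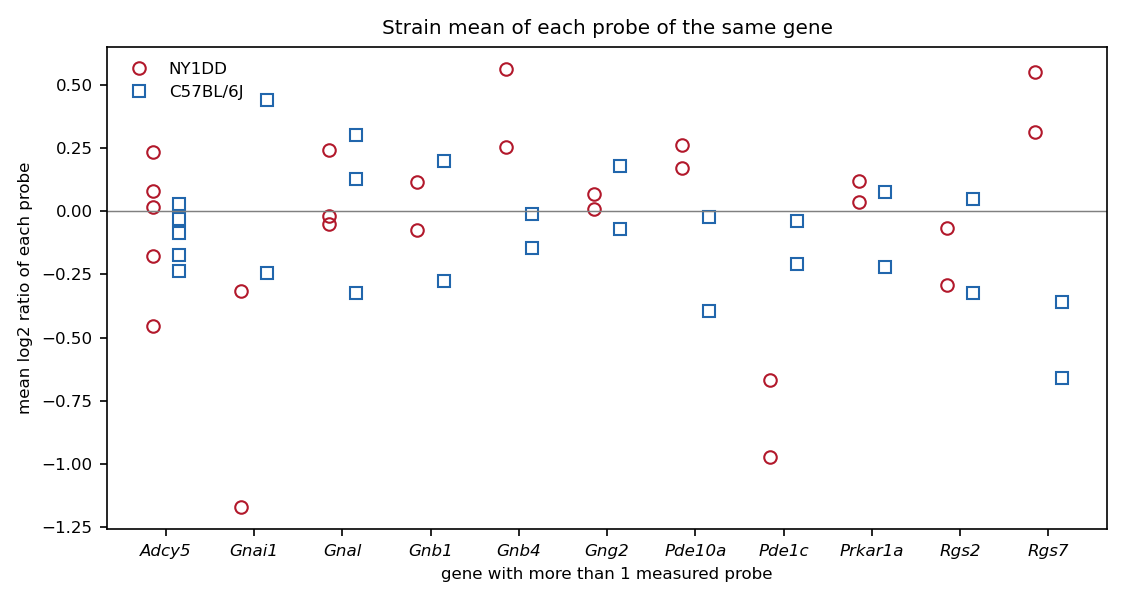
Mean log2 ratio of each probe (points) of the 11 members with more than 1 measured probe, in NY1DD (red circles, left) and C57BL/6J (blue squares, right). The probes of Rgs7 lie above 0 in NY1DD and below 0 in C57BL/6J, while the probes of Gnai1 lie at -0.32 and -1.17 in NY1DD and on both sides of 0 in C57BL/6J.

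Pathway genes around the module gave 22 measured genes of 49 listed, and 0 of the 4 opioid receptors was among them. In NY1DD 12 were positive and 10 negative (median 0.06), and in C57BL/6J likewise 12 and 10 (median 0.03); none passed the test. Those with an unadjusted limma p under 0.05 in any comparison were Gpsm1, Ppp1r1b, Pcp2 and Crebbp. Gpsm1, which binds free Gi alpha subunits, had 0.60, 0.44 and 0.13 in NY1DD, against -0.08, -0.18 and -0.42 in C57BL/6J, with no overlap (difference 0.62, limma adjusted p = 0.969, n = 3 a strain). Ppp1r1b (DARPP-32), a PKA target of striatal neurons that inhibits protein phosphatase 1, had 0.77, 0.35 and 0.46 in NY1DD, against -0.03, 0.35 and -0.49 in C57BL/6J. Pcp2, a Gi/o modulator of Purkinje and retinal bipolar cells, had -0.55, -1.97 and -1.20 in NY1DD, against -0.67, -1.67 and 0.18 in C57BL/6J, and the strains overlapped. Crebbp, the coactivator of CREB, had -0.39, -0.49 and 0.14 in NY1DD, against -1.32, -0.07 and -1.09 in C57BL/6J.

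Marker lists for cell types were set beside these values. Striatal neuron markers, which include Ppp1r1b, were more often positive in NY1DD, with no gene past the test: 6 of 7 measured genes (of 13 listed) had a positive NY1DD mean and 2 of 7 a positive C57BL/6J mean, and the median of the list was 0.25, 0.28 and 0.57 on the NY1DD arrays, against 0.02, -0.15 and -0.07 on the C57BL/6J arrays. Gnal, Adcy5, Pde10a, Pde1b and Gng7 are members enriched in the striatum, and their differences between strains were 0.02, 0.08, 0.42, -0.05 and 0.45. The Gng7 difference rested on NY1DD replicate 1, at 1.79. The other NY1DD arrays, at -0.43 and -0.22, lay below the C57BL/6J mean of -0.07. The part of the striatal share in any member's value was not tested. In bulk brain RNA, fewer cells of a type and less RNA per cell cannot be told apart. The strain means had medians of 0.11 in NY1DD and 0.05 in C57BL/6J for 7 oligodendrocyte markers, -0.11 and 0.07 for 7 astrocyte markers, 0.00 and -0.01 for 3 microglial markers, and 0.13 and 0.29 for 3 choroid plexus markers. None of the 8 listed blood markers was measured.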

How the data were processed

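The authors deposited 1 value per spot and array on a natural log scale; the scale was read from the values, whose floor on every array is the natural log of 0.01, and base e turned 401 of 67772 other values into whole multiples of 0.1, while base 2 gave 1 and base 10 gave 2 (tolerance 1e-06). The deposited values are ratios of the 2 channels; naloxone is the likely numerator, as the series' design has it in the Cy5 channel. How the authors normalised, corrected background and filtered spots is not given in the sources used here.

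Of 11532 spots, 30 controls were left out. The remaining values were put on the log2 scale; those at the floor were treated as missing (4 among the members' probes); a probe needed 2 arrays in each strain (11340 of 11502 kept); the median of each array was subtracted; and probes of one single symbol were averaged, giving 9685 features, 6146 of them genes. Symbols come from the platform annotation (7906 probes with 1 symbol, 297 with several, 3299 with none). The 6 arrays entered 1 limma fit (lmFit and eBayes, version 3.58.1, in R 4.3.3) with 1 mean for each strain, 4 residual degrees of freedom and 3.13 prior ones. All tests were two-sided with Benjamini-Hochberg adjustment over all features; SE comes from this model. The fit was tested on simulated data. In each comparison, the 4 members per side with the largest moderated t were named with full values, and all Gi/o, Gs/olf, cyclase and PKA genes whatever their value. The members and lists were chosen with earlier results of these data known. The replicate numbers of the strains were checked for pairing: deviations of same-numbered arrays from their strain means correlated at -0.0666, 0.0508 and 0.0197, so they were not treated as pairs. Alternatives covered the floor, centring, scaling, filter, choice of probe, replicate block, shared title number, plate well and each array left out.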

Additional observations from a re-analysis of the deposited data

Results flagged for a closer look

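Rgs7 was positive on every NY1DD array and negative on every C57BL/6J array, with a difference between strains of 0.98 on the log2 scale (SE 0.22, limma adjusted p = 0.969, n = 3 arrays a strain). It did not pass the test of the difference over all features. Each of its probes was positive on 1 C57BL/6J array.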

How the results depend on the processing

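Under all alternatives that were run, 0 features and 0 members passed in each of the 4 comparisons. Of 474 recomputed values of named genes, 473 kept their direction, with limma adjusted p from 0.0911 to 1. The exception was Adcyap1r1 in NY1DD, at -1.94 with values at the lower limit kept, because 1 of its NY1DD values is at that limit. Counts below are members with an unadjusted limma p under 0.05. The NY1DD median of the members was 0.051 without centring and -0.0040 with arrays scaled to one spread. With a replicate block, the positive NY1DD count was 2 and the negative count of the strain difference 1; the block moved no other such count by more than 1.5 times and added no call. Same-numbered arrays did not all correlate best with each other. The negative count of the strain difference was also 1 with scaled arrays and with the well position correction. The positive count of the average was 3 without centring and 2 with 1 probe per gene. The random block for the title number could not be fitted with a single pair of arrays; with that pair averaged, a choice made after the data were seen, the negative C57BL/6J count was 2. Leaving out 1 array gave counts of 2 to 3 (positive) and 3 to 5 (negative) in NY1DD, 0 to 1 (positive) in C57BL/6J, 0 to 2 (negative) for the difference, and 1 to 3 (positive) and 3 to 6 (negative) for the average; the median of the members ran from 0.0017 to 0.020 in NY1DD and from 0.023 to 0.073 for the difference; the C57BL/6J median ran from -0.084 to -0.021, its highest without C57BL/6J replicate 3. The cause of these moves was not tested. The number of arrays limits the precision, and signal over background is unknown.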

Other observations

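Rgs8 and Pcp2 are both known from Purkinje cells, so a list of 12 Purkinje cell genes, chosen after the values were seen, was read from the same fit. Pcp2, whose values led to the list, is among its genes, so its counts restate that value in part. Of the 7 measured, 6 had a negative mean in NY1DD and 3 in C57BL/6J, and none passed the test. Without Pcp2, the median of the other 6 was -0.02, 0.10 and -0.48 on NY1DD replicates 1 to 3, against 0.0033, 0.11 and 0.09 on C57BL/6J replicates 1 to 3, so that only NY1DD replicate 3 lay well below the other arrays. The genes did not share a direction: Car8 was negative on all 6 arrays (means -0.49 in NY1DD and -0.21 in C57BL/6J), and Dner was positive on all 6 (means 0.14 and 0.29). Gad1 had means of -0.36 in NY1DD and -0.95 in C57BL/6J, Rora -0.0046 and 0.25, Pvalb -0.29 and 0.12, and Calb1 -0.06 and 0.14. Rgs8 was lowest on C57BL/6J replicate 3, where the median of the 6 genes was positive but the genes were spread. There Gad1 had -1.08 and Car8 -0.11, while Dner had 0.58, Rora 0.51, Pvalb 0.16 and Calb1 0.01. The part of a Purkinje cell share in the Rgs8 values was not tested.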
